A study of Homo sapiens with 18 samples.

Results

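Colony-stimulating factors and interleukins were represented by 9 genes, taken by symbol from the read counts of an RKO cell experiment: CSF1, CSF2 and CSF3, the gp130 ligands IL6, IL11 and LIF, and the interleukins IL18, IL23A and IL32. They were 9 of the 39859 symbols listed, and 7 of them had at least 1 read in the 15 libraries used here. Of these, 6 had enough reads to be tested (CSF1, CSF3, IL11, LIF, IL23A and IL32). CSF2, IL6 and IL18 had too few reads.

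RKO is a human colon carcinoma line, used here with doxycycline-inducible Cas9. FACS-sorted cells carried a constitutive guide RNA against ERH (sgERH), which encodes a small conserved protein with roles in RNA processing, or against the AAVS1 safe-harbour locus (sgAAVS1, the control guide). Every group, controls included, received 100 ng/mL doxycycline for 5 days. Each guide was then combined with 4 h of 10 ng/mL IL-1β, 25 ng/mL IFNγ or water (non-treated, NT), which gave 6 groups: sgERH and sgAAVS1 under IL-1β, under IFNγ and in NT. The comparisons asked how ERH loss altered baseline and cytokine-stimulated mRNA levels. All cells derived from 1 cell line, and editing took place in a population rather than in a clone.

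The 18 libraries hold 3′ mRNA read counts from biological replicates, 3 in each group. The study left out 1 library each of sgAAVS1 NT, sgERH IFNγ and sgAAVS1 IL-1β after a principal component analysis, and the same 15 were used here, with 2 or 3 per group. They held 4987127 to 5986338 reads each (median 5242702), against 3811492 to 11821239 in the 3 left out. Among the 15, sgERH IL-1β replicate 2 stood apart: its chi-square per degree of freedom was 14.97 and 18.33 against its replicates, against 2.57 to 5.99 in all other replicate pairs. Of its reads, 23.2% mapped to more than 1 place, against 20.4% to 21.8% in the other 14 libraries. A gene was called when its adjusted p was at most 0.05 and its log2 fold change at least 1 in either direction. Without this library, 263 genes were called for IL-1β in sgAAVS1, against 85 with it, and member results that rest on it are given both ways. The labels do not say whether these replicates were grown apart, and each p-value therefore rests on the spread between libraries, which may be technical. ERH mRNA was at 252 to 339 CPM in the 8 sgERH libraries, against 536 to 641 CPM in the 7 sgAAVS1 libraries. CPM here is the read count scaled to library size with TMM factors, unless totals are named. Statements that groups do or do not overlap describe the 2 or 3 libraries of each group. The share of all genes without overlap was not computed. A 3′ tag does not report on the edited coding sequence or on ERH protein. Of the 8 colon epithelium markers, KRT19 and KRT20 had 0 reads, CDH1 and VIL1 had 1 read each, and KRT8, KRT18, EPCAM and CDX2 were detected. Their list summed to 106 to 126 CPM of total reads in sgERH libraries and 120 to 144 in sgAAVS1 libraries, and single markers moved with the guide. EPCAM rose in sgERH by 1.48 ± 0.26 log2 units in NT and 1.37 ± 0.24 under IFNγ (SE, edgeR adjusted p = 9.09e-05 and 1.33e-04), and CDX2 by 1.16 ± 0.28 under IL-1β (0.00277), which was 0.97 without sgERH IL-1β replicate 1. KRT18 was at 54.9 to 76.6 CPM of total reads in sgERH libraries and 80.8 to 105 in sgAAVS1 libraries, with no call. Of the 7 leukocyte markers, PTPRC, MS4A1, LYZ and ITGAM had 0 reads, and CD68, which is also expressed outside leukocytes, was at 413 to 504 CPM of total reads in sgERH libraries and 390 to 428 in sgAAVS1 libraries. The 8 fibroblast and endothelial markers together reached at most 0.954 CPM of total reads in sgERH libraries and 0.167 in sgAAVS1 libraries. The part of these marker levels in the results was not tested.

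Colony-stimulating factors are secreted proteins that drive survival and differentiation of macrophages (CSF1), granulocytes and macrophages (CSF2) and neutrophilic granulocytes (CSF3). IL6, IL11 and LIF each bind a receptor of their own and then share the signalling chain gp130, encoded by IL6ST, which activates JAK kinases and STAT3. IL-1β switches on NF-κB and AP-1 at the promoters of many such genes, and their mRNAs are often short-lived through AU-rich elements in the 3′ UTR, which recruit decay proteins.

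The first sequence shown is the IL11 promoter, because IL11 carried the largest guide difference among the members tested in the NT and IFNγ comparisons. It spans chr19:55370414-55370713 on the minus strand (GRCh38.p14, RefSeq), from 250 bases before to 50 bases after the transcription start. Capitals mark the single match to the AP-1 letters TGANTCA, whose first base lies 96 bases before the start.
IL11 promoter: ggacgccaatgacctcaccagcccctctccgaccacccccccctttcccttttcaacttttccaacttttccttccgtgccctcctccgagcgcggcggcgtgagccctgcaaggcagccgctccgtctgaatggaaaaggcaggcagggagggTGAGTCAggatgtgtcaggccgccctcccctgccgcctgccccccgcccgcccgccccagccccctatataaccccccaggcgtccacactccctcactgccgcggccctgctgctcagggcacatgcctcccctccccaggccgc

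RefSeq promoters were found for 5 of the 9 members (CSF2, IL6, IL11, IL23A and IL32). TGANTCA occurred on either strand in 7.71% of the 35116 promoters in the table, and a κB-like pattern (GGG, any 5 bases, CC) occurred in 58.7%. Among the members, TGANTCA was found in IL11 and IL23A, while the κB-like pattern was found in CSF2, IL6, IL23A and IL32 and not in the IL11 window. A match is a description of letters and not a binding site.

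AU-rich letters in the 3′ UTRs were then compared, since this sequence class is typical of cytokine mRNAs. In the canonical GENCODE transcripts, 7 of the 9 members held at least 4 ATTTA pentamers, against 34.1% of 19538 transcripts. The value of 4 is the lowest count above 0 among the members. The same 7 members held at least 1 pentamer, against 67.5% of transcripts. UTR length was not taken into account. IL11 held 9, CSF2 8, CSF3 and LIF 7 each, IL6 6, and CSF1 and IL23A 4 each, whereas IL18 and IL32 held 0. The longer core TTATTTATT occurred in 4 of the 9 members and in 8.44% of transcripts, with 6 copies in IL11 (overlaps counted), 3 in CSF2, 2 in LIF and 1 in IL23A. The first copy of each is shown in capitals with its neighbouring bases (GRCh38): IL11 at chr19:55365949-55365973 (minus strand), LIF at chr22:30240960-30240984 (minus strand), IL23A at chr12:56340341-56340365 (plus strand) and CSF2 at chr5:132076075-132076099 (plus strand).
IL11 site: gccagatcTTATTTATTtatttatt
LIF site: ccgggcccTTATTTATTatttaaac
IL23A site: ggggaggaTTATTTATTgtatttat
CSF2 site: taaaatatTTATTTATTtatttatt

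IL11, a gp130 ligand first known from haematopoiesis and since studied in fibrosis and epithelial tumours, was higher in sgERH cells under every treatment. In NT cells it had 162, 157 and 156 CPM in sgERH libraries, against 34.8 and 43.3 CPM in sgAAVS1 libraries. Under IFNγ it had 130 and 127 CPM in sgERH libraries, against 24.9, 25.7 and 25.8 CPM in sgAAVS1 libraries. Under IL-1β it had 147, 116 and 125 CPM in sgERH libraries, against 27.4 and 29.3 CPM in sgAAVS1 libraries. Every sgERH library was above every sgAAVS1 library, whatever the treatment, and the groups did not overlap. The 3 libraries left out kept the same order: over all 18, IL11 had 81.1 to 168 CPM of total reads in the 9 sgERH libraries and 21.7 to 39.9 in the 9 sgAAVS1 libraries.

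The mean ratio of sgERH to sgAAVS1 for IL11 was 4.06 in NT, 5.04 under IFNγ and 4.56 under IL-1β. In edgeR's quasi-likelihood test with Benjamini-Hochberg adjustment over 13370 genes, IL11 rose in sgERH by 2.02 ± 0.13 log2 units in NT (SE, adjusted p = 1.77e-11). The rise was 2.33 ± 0.13 under IFNγ (adjusted p = 3.88e-13) and 2.19 ± 0.14 under IL-1β (adjusted p = 1.18e-11), in the same edgeR fit. The average over treatments was 2.18 ± 0.08 (edgeR adjusted p = 5.01e-18). All 4 IL11 calls held in every one of the 23 other settings tried, and without sgERH IL-1β replicate 2 the rise under IL-1β was 2.26. In bulk RNA, more cells with IL11 transcripts and more IL11 RNA per cell cannot be told apart.

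Cytokine treatment moved IL11 little beside the guide. In each guide, every IL-1β and IFNγ library was below every NT library, yet none of the 4 cytokine comparisons was called. The largest was IFNγ in sgAAVS1 cells, with a log2 fold change of -0.62 ± 0.14 (SE, edgeR adjusted p = 0.0159), which is short of the fold threshold. The others were -0.47 ± 0.15 for IL-1β in sgAAVS1, -0.30 ± 0.11 for IL-1β in sgERH and -0.31 ± 0.12 for IFNγ in sgERH, with edgeR adjusted p from 0.154 to 0.686. The interaction of guide and cytokine was 0.31 for IFNγ (approximate 95% interval -0.04 to 0.67) and 0.17 for IL-1β (-0.19 to 0.53), and neither was called. By mean level the groups ran sgERH NT, sgERH IL-1β, sgERH IFNγ, sgAAVS1 NT, sgAAVS1 IL-1β and sgAAVS1 IFNγ from high to low, and only the neighbours sgERH IL-1β and sgERH IFNγ overlapped.

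**Figure D1:**
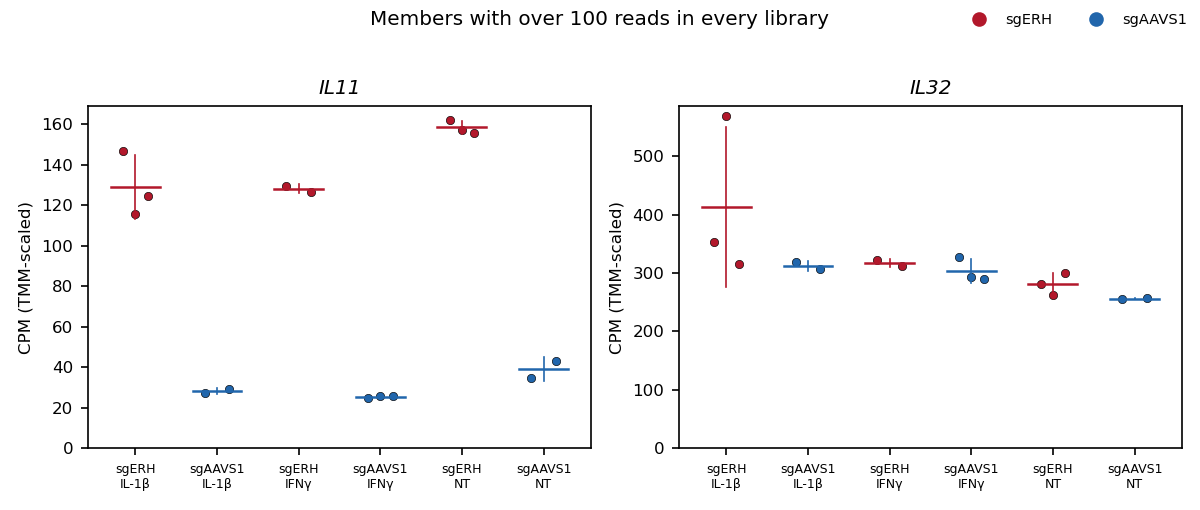
CPM after TMM scaling (linear axis from 0) of IL11 and IL32 in each library of the 6 groups; points are libraries, horizontal bars group means and vertical bars 1 SD. IL11 is at 116 to 162 in sgERH libraries and 24.9 to 43.3 in sgAAVS1 libraries, whereas for IL32 the guides lie close under each treatment except for 1 sgERH IL-1β library at 569.

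LIF, the leukaemia inhibitory factor that signals through LIFR and gp130, was low and variable. Under IL-1β it had 35, 19 and 99 reads in sgERH libraries, against 33 and 63 in sgAAVS1 libraries. Under IFNγ it had 58 and 35 reads in sgERH libraries, against 20, 14 and 18 in sgAAVS1 libraries. In NT it had 16, 8 and 26 reads in sgERH libraries, against 5 and 16 in sgAAVS1 libraries. The guides overlapped in NT and under IL-1β but not under IFNγ. The lowest sgERH IL-1β library, replicate 2, was within the sgERH NT range in CPM, while replicates 1 and 3 were above it.

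No LIF comparison was called in the main fit. Of the 8 other settings that did not leave out 1 library, 4 called LIF for IL-1β in sgAAVS1. In the same settings it was called in 1 for IL-1β in sgERH, 1 for IFNγ in sgERH and 2 for the guide under IFNγ. The log2 fold change for IL-1β was 1.64 ± 0.55 in sgERH (SE, edgeR adjusted p = 0.190) and 2.26 ± 0.73 in sgAAVS1 (adjusted p = 0.187). That for sgERH against sgAAVS1 under IFNγ was 1.29 ± 0.60 (edgeR adjusted p = 0.134). Without sgERH IL-1β replicate 2, all of these were called, with edgeR adjusted p of 0.0270 for IL-1β in sgERH, 0.0193 for IL-1β in sgAAVS1 and 0.0387 for the guide under IFNγ. Without sgERH IL-1β replicate 3, the library with 99 reads, the IL-1β comparison in sgAAVS1 and the guide comparison under IFNγ were called, at adjusted p of 0.0121 and 0.0220.

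IL6, the founding gp130 cytokine of the acute-phase response, had 0 reads in all 18 libraries. Over the 15 libraries used, with 79902405 reads, a count of 0 allows up to 0.0376 CPM (3 reads), counting error only. LIF and IL6 overlap genes on the other strand in GENCODE (LIF-AS1 and LIF-AS2, STEAP1B and IL6-AS1), as do IL18 and IL32 with genes that have no symbol there, and whether strand was used in counting is not given in the sources used here.

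CSF3, which drives the production of neutrophils, appeared only in IL-1β libraries among those used. It had 62, 66 and 53 reads in sgERH IL-1β libraries, against 6 and 11 in sgAAVS1 IL-1β libraries. In all NT and IFNγ libraries of both guides it had 0 reads. The sgERH IL-1β libraries were thus all above the sgAAVS1 IL-1β libraries, which in turn were above the libraries without IL-1β. CSF3 passed the filter on low reads through the sgERH IL-1β libraries, where it was highest.

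In CPM, CSF3 averaged 10.9 ± 1.64 in sgERH IL-1β cells (SD, n = 3) and 1.73 ± 0.74 in sgAAVS1 IL-1β cells (SD, n = 2), a ratio of 6.32. The log2 fold change was 2.64 ± 0.52 (SE, edgeR adjusted p = 6.29e-04), and the call held in all 23 other settings with values from 2.26 to 3.15 (2.53 without sgERH IL-1β replicate 2). Against a floor of 3 reads over the NT group, IL-1β raised CSF3 at least 62.7-fold in sgERH and at least 5.94-fold in sgAAVS1. Both cytokine comparisons were called by edgeR, at adjusted p of 1.88e-06 in sgERH and 0.0384 in sgAAVS1. The sgAAVS1 call was lost without sgAAVS1 NT replicate 2 (adjusted p = 0.222) or 3 (0.240), without sgAAVS1 IL-1β replicate 1 (0.0572) or 2 (0.309) and without sgERH IL-1β replicate 1 (0.0619), and with all 18 libraries (0.160), and with only the groups compared CSF3 did not pass the filter. With both NT groups at 0, the interaction of guide and IL-1β was not estimated.

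CSF1, the growth factor of macrophages, had reads in every library. Under IL-1β it had 12.2, 4.76 and 11.2 CPM in sgERH libraries, against 5.24 and 6.55 in sgAAVS1 libraries. Under IFNγ it had 6.28 and 5.98 CPM in sgERH libraries, against 14.5, 9.13 and 9.20 in sgAAVS1 libraries. In NT it had 3.65, 3.24 and 2.72 CPM in sgERH libraries, against 2.51 and 2.17 in sgAAVS1 libraries. Both cytokines were above NT in each guide without overlap. The sgERH libraries were below the sgAAVS1 libraries under IFNγ, overlapped them under IL-1β and were above them in NT. The overlap under IL-1β rested on sgERH IL-1β replicate 2, at 4.76 CPM, while replicates 1 and 3 were above every sgAAVS1 IL-1β library.

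CSF1 rose with IFNγ in sgAAVS1 cells by 2.21 ± 0.40 log2 units (SE, edgeR adjusted p = 0.00187), and with IL-1β in sgERH cells by 1.55 ± 0.33 (adjusted p = 0.0174; 1.85 without sgERH IL-1β replicate 2). It was not called for IFNγ in sgERH (0.93 ± 0.38, edgeR adjusted p = 0.688) or for IL-1β in sgAAVS1 (1.33 ± 0.45, adjusted p = 0.185). The difference between guides was not called either: the interaction was -1.28 ± 0.56 for IFNγ (edgeR adjusted p = 0.799) and 0.23 ± 0.58 for IL-1β (0.908). The guide comparison under IFNγ gave -0.83 ± 0.34 (adjusted p = 0.0758). Under IL-1β it gave 0.68 ± 0.35 (edgeR adjusted p = 0.159), with 0.45 to 0.99 on leaving out 1 library and no call in any setting. The call for IFNγ in sgAAVS1 was lost without sgAAVS1 NT replicate 3 (adjusted p = 0.0925) and with all 18 libraries (0.205). That for IL-1β in sgERH was lost without sgERH NT replicate 1 (0.0568), 2 (0.102) or 3 (0.0743) and without sgERH IL-1β replicate 1 (0.0531), with all 18 libraries (0.9998) and with only the groups compared (0.198), and the IL-1β comparison in sgAAVS1 was called without sgERH IL-1β replicate 2 (0.0421).

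CSF2, the granulocyte and macrophage factor, had 2 reads in 1 sgAAVS1 IL-1β library and 0 in the other 17. Pooled over the 15 libraries this was 0.0250 CPM, with an exact 95% Poisson interval of 0.00303 to 0.0904 for counting error. An exact two-sided permutation test within treatments gave an unadjusted p = 0.4 for sgERH minus sgAAVS1. With reads in only 1 library, this was the lowest p the test could give. It therefore cannot decide on a guide effect at this depth. IL6 and IL18 had no read to test.

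**Figure D2:**
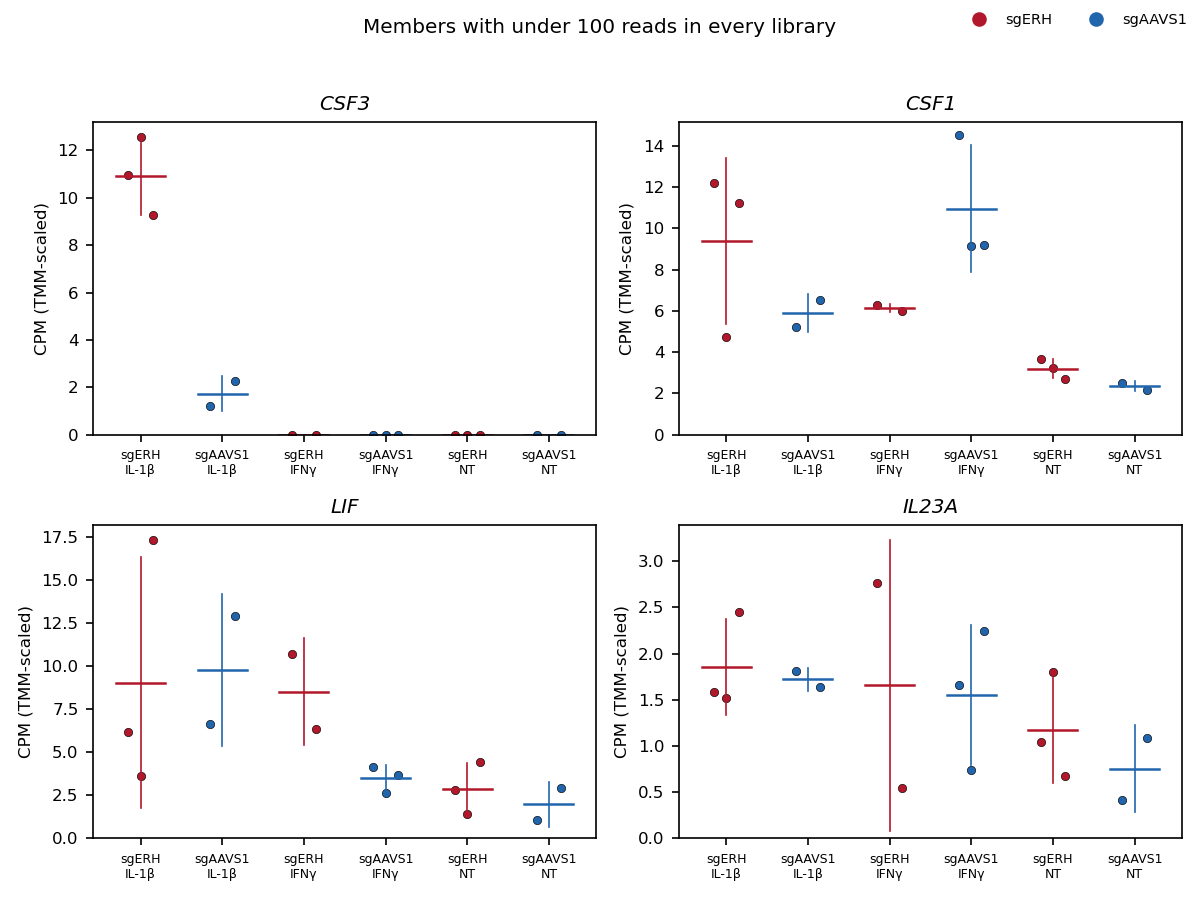
CPM after TMM scaling (linear axes from 0) of CSF3, CSF1, LIF and IL23A in each library; points are libraries, horizontal bars group means and vertical bars 1 SD, cut off at 0. CSF3 is at 9.28 to 12.6 in sgERH IL-1β libraries, 1.21 to 2.25 in sgAAVS1 IL-1β libraries and 0 elsewhere, and the LIF and IL23A libraries scatter widely within groups.

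IL32 is a cytokine with many isoforms, made by epithelial and immune cells. Under IL-1β it had 353, 569 and 316 CPM in sgERH libraries, against 319 and 306 in sgAAVS1 libraries. Under IFNγ it had 322 and 313 CPM in sgERH libraries, against 328, 294 and 289 in sgAAVS1 libraries. In NT it had 282, 262 and 299 CPM in sgERH libraries, against 255 and 257 in sgAAVS1 libraries. The cytokine-treated libraries lay above NT in each guide, and the guides overlapped under both cytokines but not in NT.

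No IL32 comparison was called. The largest log2 fold changes were 0.55 ± 0.15 for IL-1β in sgERH (SE, edgeR adjusted p = 0.0907) and 0.40 ± 0.17 for sgERH against sgAAVS1 under IL-1β (adjusted p = 0.0891). Without the library at 569 CPM, sgERH IL-1β replicate 2, these were 0.24 and 0.10. In CPM of total reads this library was at 580. The left-out libraries were at 490 (sgAAVS1 NT replicate 1), 577 (sgERH IFNγ replicate 2) and 347 (sgAAVS1 IL-1β replicate 3). High IL32 was thus not confined to IL-1β or to sgERH. Of the IL32 reads, 13.0% mapped to more than 1 place, against 0.570% for CSF1 and 0.215% for LIF. IL32 also overlaps RNU1-125P on its own strand, so its counts are less certain than those of members without an overlapping gene.

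IL23A, the p19 subunit that pairs with IL12B to form IL-23, had 2 to 15 reads per library. By group, its mean was 1.85 ± 0.52 CPM in sgERH IL-1β (SD, n = 3) and 1.73 ± 0.12 in sgAAVS1 IL-1β (n = 2), and 1.66 ± 1.57 in sgERH IFNγ (n = 2) and 1.55 ± 0.76 in sgAAVS1 IFNγ (n = 3). In NT it was 1.17 ± 0.57 in sgERH (n = 3) and 0.753 ± 0.472 in sgAAVS1 (n = 2). The guides overlapped under every treatment and no comparison was called. Its intervals were wide at this depth. For sgERH against sgAAVS1 in NT the approximate 95% interval ran from -0.96 to 2.13 log2 units, which holds both 0 and the fold threshold of 1.

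IL18, a cytokine of the IL-1 family that is matured by caspase-1, had 0 reads in all 18 libraries, with the same limit of 0.0376 CPM over the 15 used.

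Across the guide comparisons, the members called were IL11 in NT (1 of the 5 with reads there, against 8.24% of all genes), IL11 under IFNγ (1 of 5, against 7.61%) and CSF3 and IL11 under IL-1β (2 of 6, against 8.48%), where CSF3 entered the test only because it was high in sgERH IL-1β. On average over treatments 1 of 5 was called, against 8.89% of all genes. All these calls were higher in sgERH, where the shares of all genes called higher were 5.95%, 5.24%, 5.68% and 6.75% in the same order. Over the members with a fold change that could be estimated, the median log2 fold change was 0.51 in NT, 0.10 under IFNγ and 0.54 under IL-1β, and 0.04, 0.04 and 0.02 over all genes.

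Across the cytokine comparisons, CSF1 and CSF3 were called for IL-1β in sgERH (2 of 6, against 0.292% of all genes) and CSF3 for IL-1β in sgAAVS1 (1 of 6, against 0.636%). For the same reason the CSF3 calls for IL-1β, and the IL-1β medians that include CSF3, are a description and no support for the members as a group. For IFNγ the count was 0 of 5 in sgERH (against 0.0150%) and 1 of 5 in sgAAVS1, CSF1 (against 0.598%). For IFNγ in sgERH, 3 members were under an unadjusted edgeR p of 0.05 (CSF1, IL11 and LIF), as were 6.64% of all genes, and DESeq2 called 0 members. The median log2 fold change of the members was 1.11 for IL-1β in sgERH and 1.23 in sgAAVS1, against 0.01 and -0.02 over all genes, and it was the same with CSF3 at its lower bound. For IFNγ it was 0.49 in sgERH and 0.77 in sgAAVS1, against 0.01 and -0.02 over all genes. The 2 cytokines share the NT libraries of each guide. No member was called for the interaction of guide with IFNγ (against 0.202% of all genes) or with IL-1β (against 0%), by edgeR or DESeq2, which gave no adjusted p for IL23A with IL-1β. At an unadjusted edgeR p under 0.05 there were 1 member for IFNγ (CSF1, against 5.84% of all genes) and 0 for IL-1β (against 11.1%).

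**Figure D3:**
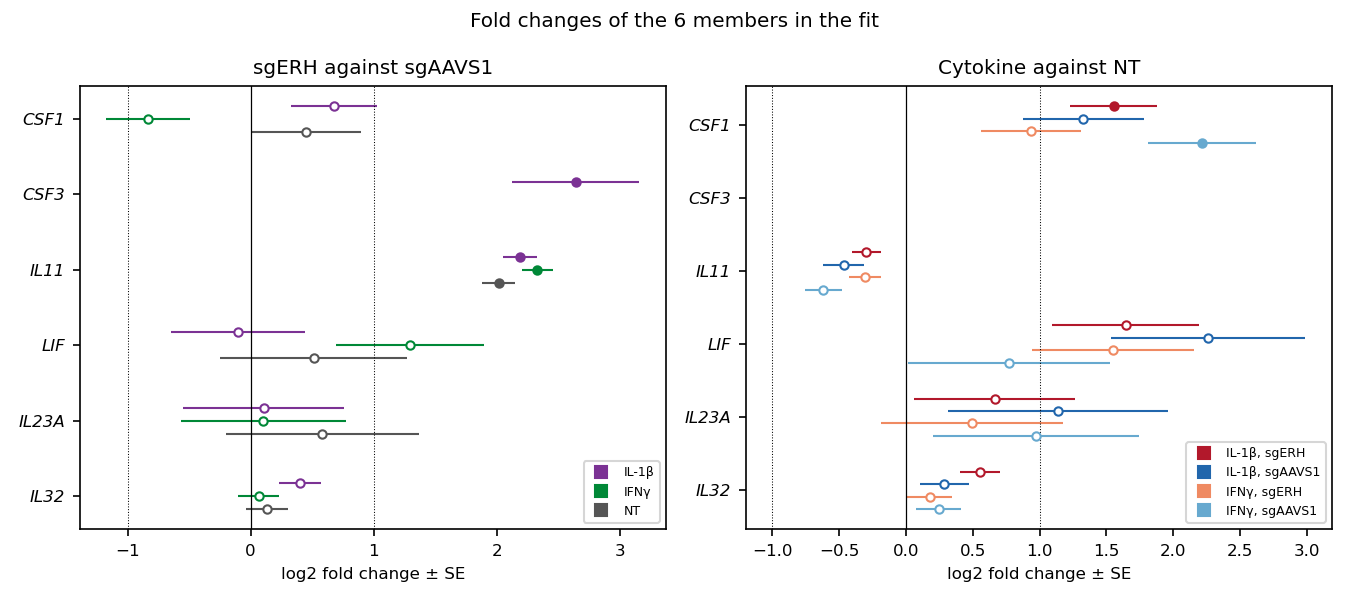
Log2 fold changes with 1 SE (horizontal axes) of the 6 members tested, for sgERH against sgAAVS1 at left and cytokine against NT at right; filled points were called, dotted lines mark the fold threshold of 1, and CSF3 is left out where a group had 0 reads. IL11 lies near 2 for the guide under all treatments and below 0 for the cytokines.

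Most receptor chains had few or no reads. Of the 12 receptor chains listed, 3 were tested: IL6R and IL11RA, which bind IL6 and IL11, and the shared chain IL6ST. CSF1R, CSF2RB, CSF3R and LIFR had 0 reads in the libraries used. IL6ST had 27.5, 19.2 and 40.8 CPM in sgERH IL-1β libraries, against 23.1, 20.3 and 24.9 CPM in sgERH NT. In sgAAVS1 cells it had 32.6 and 38.7 CPM under IL-1β, against 13.8 and 11.04 CPM in NT. IL-1β and NT stood apart in sgAAVS1. In sgERH they overlapped only through sgERH IL-1β replicate 2, at 19.2 CPM, while replicates 1 and 3 were above every sgERH NT library.

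IL6ST rose with IL-1β in sgAAVS1 cells by 1.52 ± 0.28 log2 units (SE, edgeR adjusted p = 0.00496), while in sgERH the value was 0.36 ± 0.21 (adjusted p = 0.461) and the interaction of -1.16 ± 0.35 was not called (0.298). The call was lost without sgAAVS1 NT replicate 2 (0.0746) or 3 (0.172) and without sgAAVS1 IL-1β replicate 2 (0.117). IL6R had group means of 22.4 to 27.0 CPM in sgERH and 23.9 to 29.4 CPM in sgAAVS1, and IL11RA had 3.62 to 5.16 CPM in sgERH and 3.44 to 5.85 CPM in sgAAVS1, with no call. The median log2 fold change of the 3 receptors for sgERH against sgAAVS1 was 0.11 in NT, -0.15 under IFNγ and -0.12 under IL-1β.

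Of 11 partners, processing enzymes and antagonists, 5 were tested and 1 was called, IL18BP, the secreted inhibitor of IL-18. It was called for the guide under IFNγ and for IFNγ in sgAAVS1, where 7.61% and 0.598% of all genes were called. Under IFNγ it had 2.40 and 1.81 CPM in sgERH libraries, against 6.64, 6.71 and 10.2 CPM in sgAAVS1 libraries. The sgERH libraries were all below, and IL18BP fell by 1.89 on the log2 scale (SE 0.42, edgeR adjusted p = 0.00159). It rose with IFNγ in sgAAVS1 by 1.99 ± 0.43 (adjusted p = 0.0138), a call lost without sgAAVS1 NT replicate 3 (0.409) or sgAAVS1 IFNγ replicate 3 (0.122). The interaction, -2.50 ± 0.63, was not called (edgeR adjusted p = 0.144). Short of the fold threshold only, ADAM10 was at 0.44 in NT, 0.44 under IFNγ and 0.53 under IL-1β for the guide (edgeR adjusted p = 0.031, 0.027 and 0.011). CASP4 was at -0.57 for the guide under IFNγ (edgeR adjusted p = 0.0014). The list's median for the guide under IFNγ was -0.57, against 0.04 over all genes.

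Among 36 other interleukins and haematopoietic growth factors, 5 were tested and 2 were called higher in sgERH NT cells, against 5.95% of all genes. FLT3LG, the ligand of FLT3 on progenitor and dendritic cells, had 14.6, 10.8 and 17.3 CPM in sgERH NT libraries, against 4.40 and 6.15 CPM in sgAAVS1 NT libraries (log2 fold change 1.42 ± 0.28, SE, edgeR adjusted p = 4.87e-04). CLCF1, a further ligand of the IL6 family, had 6.95, 6.12 and 8.49 CPM in sgERH NT libraries, against 1.68 and 2.17 CPM in sgAAVS1 NT libraries (1.88 ± 0.42, adjusted p = 0.00147). Neither gene overlapped between the guides in NT, where 37.1% of all genes were under an unadjusted edgeR p of 0.05. FLT3LG also rose with IFNγ in sgAAVS1 (1.41 ± 0.29, edgeR adjusted p = 0.00678), a call lost without sgAAVS1 NT replicate 2 (0.219) or sgAAVS1 IFNγ replicate 3 (0.0680). The list's median for the guide in NT was 0.62.

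All 14 factors of cytokine mRNA decay and stability were tested. For the guide, 1 was called in NT, 1 under IFNγ and 2 under IL-1β, against 8.24%, 7.61% and 8.48% of all genes. ZC3H12A (Regnase-1), an endonuclease that degrades cytokine mRNAs, had 25.4, 29.5 and 31.4 CPM in sgERH NT libraries, against 9.43 and 10.7 CPM in sgAAVS1 NT libraries. Under IFNγ it had 26.0 and 28.3 CPM in sgERH libraries, against 9.75, 12.9 and 10.0 CPM in sgAAVS1 libraries. Under IL-1β it had 69.7, 51.6 and 54.8 CPM in sgERH libraries, against 46.1 and 45.4 CPM in sgAAVS1 libraries. The sgERH libraries were higher under every treatment, and the ranges were closest under IL-1β.

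ZC3H12A was called for the guide in NT (1.51 ± 0.20 log2 units, SE, edgeR adjusted p = 1.83e-06) and under IFNγ (1.31 ± 0.19, 6.96e-06), and not under IL-1β (0.36 ± 0.16, 0.101). IL-1β raised it by 1.03 ± 0.15 in sgERH (edgeR adjusted p = 1.29e-04) and 2.18 ± 0.21 in sgAAVS1 (1.36e-07), and the interaction of -1.15 ± 0.25 was not called (0.205). The sgERH value went under the fold threshold without sgERH NT replicate 1 (0.95) or sgERH IL-1β replicate 1 (0.89). ARID5A, which stabilises IL6 mRNA in mouse macrophages, and ZC3H12C, a relative of ZC3H12A, rose in sgERH under IL-1β by 1.19 ± 0.33 and 1.04 ± 0.34 (edgeR adjusted p = 0.00789 and 0.0255). The ARID5A call was lost without sgAAVS1 IL-1β replicate 2 (0.211), and the ZC3H12C call without sgAAVS1 IL-1β replicate 1 (0.0771) or 2 (0.233) or sgERH IL-1β replicate 3 (0.0958). The other 11 factors had no call. Among them, ELAVL1 (HuR), which stabilises AU-rich mRNAs, had log2 fold changes for the guide of -0.67 ± 0.12 in NT, -0.77 ± 0.12 under IFNγ and -0.88 ± 0.12 under IL-1β (SE, edgeR adjusted p = 1.01e-04, 2.62e-05 and 2.94e-06), short of the fold threshold only. HNRNPD (AUF1) was at -0.46, -0.45 and -0.62 in the same order (edgeR adjusted p = 0.00177, 0.00303 and 7.80e-05), TIAL1 at -0.47 in NT and -0.71 under IL-1β (0.0148 and 4.61e-04) and KHSRP at -0.47 in NT (0.00434). MAPKAPK2 was at 0.38 under IFNγ and 0.36 under IL-1β (0.0128 and 0.0200). The list's median for the guide was 0.21 in NT, 0.13 under IFNγ and 0.10 under IL-1β.

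The 8 genes of the gp130 and STAT3 response were tested last. For the guide, 1 was called in NT, 1 under IFNγ and 2 under IL-1β, against 8.24%, 7.61% and 8.48% of all genes. CEBPB, a transcription factor of the acute-phase response, had 76.4, 59.2 and 64.7 CPM in sgERH NT libraries, against 23.9 and 20.5 CPM in sgAAVS1 NT libraries. It rose in sgERH by 1.59 ± 0.18 log2 units in NT, 1.18 ± 0.16 under IFNγ and 1.14 ± 0.17 under IL-1β (SE, edgeR adjusted p = 2.35e-07, 4.78e-06 and 1.64e-05), and without sgERH IL-1β replicate 3 the last of these was 0.97. The sgERH libraries were above the sgAAVS1 libraries under every treatment. In NT, 7 of the 8 genes had a positive log2 fold change for the guide, among them BCL3 at 0.91 (edgeR adjusted p = 0.0251) and JUNB at 0.57 (0.0313), against 4 of 8 under IFNγ and 6 of 8 under IL-1β. STAT3, SOCS3, BCL3, CEBPD, JUNB and FOSL1 had no call for the guide. PIM1 was at the threshold under IL-1β (1.00 ± 0.36, edgeR adjusted p = 0.0472) and was lost on leaving out any of 14 of the 15 libraries, and the list's median was 0.68 in NT, 0.05 under IFNγ and 0.19 under IL-1β, against 0.04, 0.04 and 0.02 over all genes.

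IFNγ raised SOCS3, the feedback inhibitor of gp130 signalling, by 2.71 ± 0.49 log2 units in sgAAVS1 cells (SE, edgeR adjusted p = 0.0189) and STAT3 by 1.06 ± 0.15 (2.99e-05). In sgERH the values were 0.81 ± 0.44 for SOCS3 and 0.19 ± 0.14 for STAT3 (edgeR adjusted p = 0.785 and 0.843), and the interactions of -1.91 and -0.88 were not called (0.680 and 0.0686). The SOCS3 call was lost without sgAAVS1 NT replicate 2 (0.184) or sgAAVS1 IFNγ replicate 1 (0.0614) or 3 (0.0551), and STAT3 was under the fold threshold without sgAAVS1 NT replicate 3 (0.84). As checks of treatment, IRF1 rose with IFNγ by 2.07 in sgERH and 5.18 in sgAAVS1, and with IL-1β NFKBIA rose by 1.33 in sgERH and 2.71 in sgAAVS1, and CXCL1 by 4.40 in sgERH and 6.08 in sgAAVS1 (all log2). In NT both IL-1β check genes were already higher in sgERH, NFKBIA by 1.26 and CXCL1 by 2.32 log2 units (edgeR adjusted p = 2.87e-04 and 0.0106), and the CXCL1 call was lost without sgAAVS1 NT replicate 2 (0.0623) or 3 (0.0999). Under IL-1β the guide difference was -0.12 for NFKBIA and 0.63 for CXCL1 (edgeR adjusted p = 0.668 and 0.0492, neither called). NFKBIA had 262, 138 and 262 CPM in sgERH IL-1β libraries, with 138 in replicate 2, against 235 and 246 CPM in sgAAVS1 IL-1β libraries. Its rise with IL-1β in sgERH ran from 1.18 to 1.56 on leaving out 1 library.

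**Figure D4:**
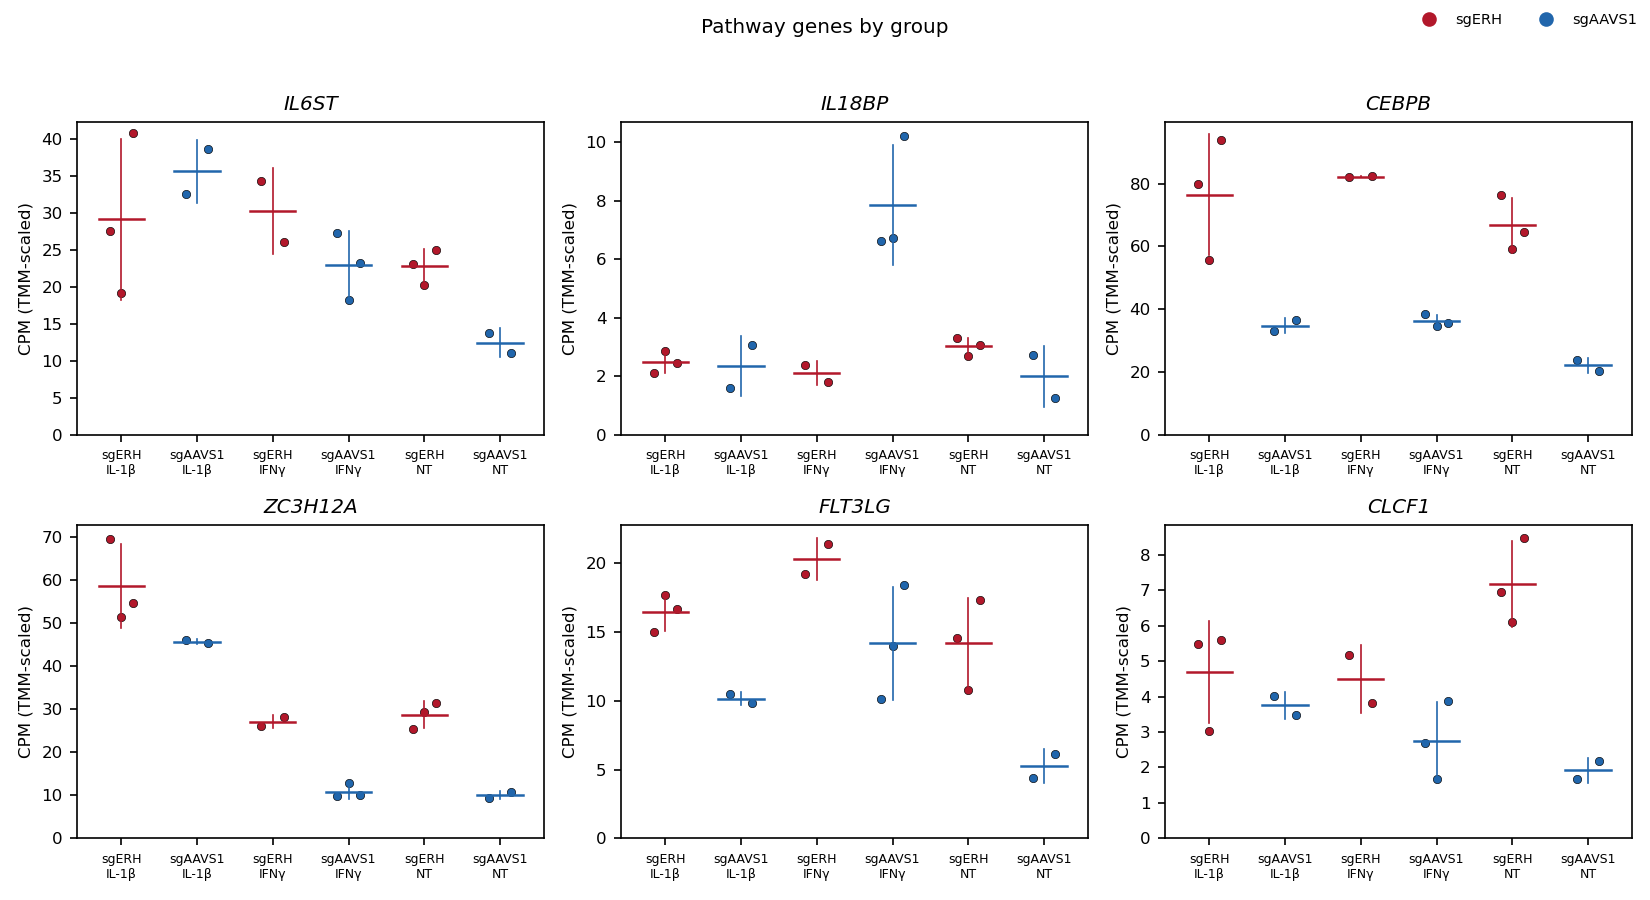
CPM after TMM scaling (linear axes from 0) of IL6ST, IL18BP, CEBPB, ZC3H12A, FLT3LG and CLCF1 in each library; points are libraries, horizontal bars group means and vertical bars 1 SD. CEBPB and ZC3H12A are higher in sgERH under all treatments, and IL18BP is highest in sgAAVS1 IFNγ libraries, at 6.64 to 10.2.

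For each member called at least once, the genes of most similar pattern were the 3 others with the highest Pearson r of log2 CPM over the 15 libraries, given as a description. For IL11 they were the long non-coding RNA SNHG7 (r = 0.99), AC005332.5 (0.99) and the tumour suppressor gene RASSF1 (0.98). SNHG7 averaged 570 CPM in sgERH NT, against 148 in sgAAVS1 NT. For CSF3 they were NINJ1 (0.92), a protein of plasma membrane rupture, and the neutrophil chemokines CXCL3 (0.91) and CXCL8 (0.90). CXCL8 averaged 22.5 CPM in sgERH IL-1β and 14.8 in sgAAVS1 IL-1β, against 1.964 in sgERH NT and 0.586 in sgAAVS1 NT. For CSF1 they were SDE2 (0.89), LINC02605 (0.87) and the adhesion molecule ICAM1 (0.87).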

How the data were processed

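Per-gene read counts were used as deposited by the authors, whose methods give QuantSeq 3′ mRNA libraries of the FWD type read as single ends, FastQC 0.11.8, Trim Galore 0.6.2 and SlamDunk counting in 3-GAmES windows on GRCh38 with RefSeq and Ensembl models, collapsed per gene. No molecular identifiers are named for these libraries, so intervals and floors cover counting error only. The counts were fitted with edgeR 4.0.16 in R 4.3.3 (TMM, filterByExpr, robust quasi-likelihood F test, 1 model of the 6 groups, Benjamini-Hochberg over 13370 genes). The study's own tool, DESeq2 (here 1.42.0), was an alternative. The SE of a log2 fold change was derived from its F statistic. Intervals of log2 fold changes used this SE with a normal quantile, so they are approximate and can be narrower than the F test implies. The common biological coefficient of variation was 12.6%. Members left out by the filter got an exact permutation test of CPM. On simulated counts for the average guide effect over 13120 genes, 98% of changes of 1.5 log2 units and 100% of changes of 2 were recovered, with 3 unchanged genes called. Changes were planted only in genes with a mean of at least 2 CPM, and the dispersion followed the fitted trend. Recovery in comparisons within 1 treatment, or for shallower genes such as IL23A, was not simulated.

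The members and gene lists were chosen with earlier results of these data known. Text names all members, the check genes, list genes called at least once, receptors tested and, for each called member, 3 genes of like pattern. Some list genes short of the fold threshold only are named as well. Other alternatives were size factors, total counts, no filter, all 18 libraries, only the groups compared, a replicate block, no multimapping reads and leaving out each library. Conversion columns of the files were not used. Replicate libraries differed beyond counting noise, with a chi-square per degree of freedom of 2.57 to 18.3.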

Additional observations from a re-analysis of the deposited data

Results flagged for a closer look

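The response of IRF1, the check gene for IFNγ, differed between the guides. Its log2 response to IFNγ was smaller in sgERH than in sgAAVS1, with an interaction of -3.11 ± 0.18 (SE, edgeR adjusted p = 3.02e-12). IRF1 had a mean of 117 CPM in the 2 sgERH IFNγ libraries and 824 CPM in the 3 sgAAVS1 IFNγ libraries.

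CSF3 also had reads in a library outside the comparisons: the sgAAVS1 IL-1β library that the study left out held 29 CSF3 reads, while every NT library was at 0. At 2.45 CPM of total reads it was above the other sgAAVS1 libraries and below all 3 sgERH IL-1β libraries.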

How the results depend on the processing

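Of 53 fold changes of members, 15 changed sign under at least 1 setting, and none of these was among the 9 called. The number of members called for IFNγ in sgAAVS1 was 0 with all 18 libraries and 0 to 1 on leaving out 1 library. For IFNγ in sgERH it was 1 with no filter. For IL-1β in sgAAVS1 it was 2 with DESeq2, with no filter and with a replicate block, 0 with all 18 libraries and 0 to 3 on leaving out 1 library. For IL-1β in sgERH it was 1 with all 18 libraries and with only the groups compared. It reached 3 among the other settings that did not leave out 1 library, and was 1 to 3 on leaving out 1 library. DESeq2 gave no adjusted p for CSF1 and CSF3 there. For the guide under IFNγ it was 2 with no filter and with only the groups compared, and 1 to 2 on leaving out 1 library. The other counts did not move. LIF was the added call with DESeq2 (adjusted p = 0.0441) and with the replicate block (0.0256) for IL-1β in sgAAVS1. In all, 4 of the 8 settings other than leaving out 1 library called LIF there.

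Sign changes were in small or shallow fold changes (log2). With all 18 libraries they were 0.13 for LIF for the guide under IL-1β, -0.14 for LIF in the interaction with IFNγ, -0.19 for IL23A for the guide under IFNγ, and for IL32 -0.32 (IFNγ in sgAAVS1), -0.19 (IL-1β in sgAAVS1), -0.44 (guide in NT) and 0.85 (interaction with IFNγ). LIF for the guide under IL-1β was 0.0545 with total counts, and IL23A for the guide under IFNγ was -0.0071 with the replicate block. Leaving out 1 library gave ranges of -0.0029 to 0.54 for CSF1 in the interaction with IL-1β. For LIF they were -0.0023 to 1.44 for the guide in NT, -0.98 to 0.45 for the guide under IL-1β and -0.17 to 1.29 in the interaction with IFNγ. For IL23A they were -1.07 to 1.23 for IFNγ in sgERH, and for the guide -1.46 to 0.84 under IFNγ, -0.15 to 0.22 under IL-1β and -0.26 to 0.54 on average. Its interactions ranged from -2.04 to 0.25 for IFNγ and from -1.32 to 0.0014 for IL-1β. For IL32 the interaction with IL-1β ranged from -0.0365 to 0.43. The cause of these changes was not tested.

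Total counts in place of TMM moved the median log2 fold change of all genes for the guide in NT to 0.22, against 0.04, and the split of genes called to 1171 higher and 140 lower, against 795 and 307. IL11 was then at 2.20. Deviations of same-numbered libraries correlated at r of -0.06 to 0.14 over 30 pairs, with 1 pair over 0.1. Different-numbered libraries gave -0.10 to 0.09 over 63 pairs. These values cannot exclude pairing by replicate number, since the deviations in a group of 2 libraries mirror each other. With a replicate block, 174 genes were called for IL-1β in sgAAVS1, against 85 in the main fit. Depth limits IL23A, at 2 to 15 reads per library. With all 18 libraries the calls given above for IL6ST, IL18BP, CLCF1, SOCS3, STAT3, ARID5A, ZC3H12C and PIM1 were lost, as were those of FLT3LG for IFNγ, CDX2, NFKBIA and CXCL1 for the guide, CEBPB under both cytokines, and ZC3H12A under IFNγ and for IL-1β in sgERH.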
